A study of Mus musculus with 10 samples.

Results

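Regions called in 1 library only were taken from ATAC-seq of mouse liver tumours, an assay that marks open chromatin with a DNA-cutting transposase. The authors deposited 1 list of called regions (peaks) for each of 10 libraries. Rows that overlapped or touched were merged within each list, the lists were joined on chromosomes 1 to 19 and X, and joined regions overlapped in exactly 1 of the 10 lists were kept. The regions were thus chosen by the calls alone. They numbered 2333 of 12266 regions, or 19.0%. Because of that choice, their number, width, strength and rank are given as descriptions, and tests were run only on gene annotation and reference sequence, which the choice did not use.

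All 10 libraries came from frozen liver tumours of FVB mice collected at death. Every mouse carried LAP-tta, an activator under a liver promoter, and TRE-MYC, a MYC transgene that is switched on when doxycycline water is taken away. The 4 WT libraries (about 55 days of age) had both Arid1a alleles floxed and no Cre. The 3 Het libraries (about 70 days) had 1 floxed allele, and the 3 Homo libraries (about 100 days) had 2, both with Alb-cre, a recombinase under the albumin promoter that acts mainly in hepatocytes. Age, Cre and Arid1a genotype therefore cannot be told apart between WT and the other groups, nor age and genotype between Het and Homo. Titles number the replicates without naming separate mice, so p-values measure only the spread between these libraries, which may be technical. In bulk tissue, fewer cells of a type and less open chromatin per cell cannot be told apart. Gene-end regions shared by 2 or more lists were found at 38.7% of all protein-coding genes. They were found at 43 of 118 genes (36.4%) of 5 liver function lists, from 3 of 25 for drug metabolism to 13 of 23 for glucose and lipid metabolism, and at 3 of 82 marker genes (3.66%) of other cell types.

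Open chromatin in mammalian cells falls into a common set and a variable set. Promoters rich in CpG dinucleotides stay open in most cell types, while promoters poor in CpG and distal enhancers open in particular cells or states. The Arid1a protein belongs to the BAF form of the SWI/SNF complex, which moves nucleosomes at both kinds of element. A place is called as a peak where its pile of tags passes a threshold over the local background.

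The start windows under 6 of the single-library regions are printed here because they cover the range of sequence found, from CpG-rich to CpG-poor. The first 4 lie under the strongest gene-end regions with a start window in WT 3, Het 1, Homo 1 and Homo 3, and the last 2 belong to classic hepatocyte genes. Each runs 5′ to 3′ along the gene's strand, from 250 bases before to 50 bases after the RefSeq start (GRCm38.p6, the assembly of mm10). Capitals mark matches, on either strand, to any of the 8 motifs listed further on.
Ralgps2, chr1:156939577-156939876, minus strand: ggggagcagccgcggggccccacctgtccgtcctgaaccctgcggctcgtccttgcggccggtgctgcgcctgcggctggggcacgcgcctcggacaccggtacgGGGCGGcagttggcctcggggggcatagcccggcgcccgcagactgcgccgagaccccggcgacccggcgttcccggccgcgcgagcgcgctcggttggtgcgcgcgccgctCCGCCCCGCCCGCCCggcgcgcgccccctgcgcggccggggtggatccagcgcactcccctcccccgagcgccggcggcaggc
Rtn2, chr7:19282374-19282673, plus strand: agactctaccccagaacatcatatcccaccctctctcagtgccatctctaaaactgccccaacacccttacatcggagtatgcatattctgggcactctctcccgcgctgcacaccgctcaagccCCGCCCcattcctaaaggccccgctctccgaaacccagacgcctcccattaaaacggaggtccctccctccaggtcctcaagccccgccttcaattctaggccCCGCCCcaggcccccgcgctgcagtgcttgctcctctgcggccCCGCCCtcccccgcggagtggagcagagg
Fra10ac1, chr19:38224103-38224402, minus strand: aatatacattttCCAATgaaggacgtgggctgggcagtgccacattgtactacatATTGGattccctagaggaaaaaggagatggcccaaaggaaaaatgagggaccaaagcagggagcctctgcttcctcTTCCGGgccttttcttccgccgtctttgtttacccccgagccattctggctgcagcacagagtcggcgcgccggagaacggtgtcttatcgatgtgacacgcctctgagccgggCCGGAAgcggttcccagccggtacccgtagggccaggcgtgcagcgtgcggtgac
Plin5, chr17:56117249-56117548, minus strand: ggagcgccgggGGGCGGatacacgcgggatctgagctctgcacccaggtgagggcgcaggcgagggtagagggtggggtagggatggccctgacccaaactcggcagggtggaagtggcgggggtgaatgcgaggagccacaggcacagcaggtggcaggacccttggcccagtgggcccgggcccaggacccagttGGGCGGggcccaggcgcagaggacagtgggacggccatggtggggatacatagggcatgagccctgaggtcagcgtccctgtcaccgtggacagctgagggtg
Fgb, chr3:83049814-83050113, minus strand: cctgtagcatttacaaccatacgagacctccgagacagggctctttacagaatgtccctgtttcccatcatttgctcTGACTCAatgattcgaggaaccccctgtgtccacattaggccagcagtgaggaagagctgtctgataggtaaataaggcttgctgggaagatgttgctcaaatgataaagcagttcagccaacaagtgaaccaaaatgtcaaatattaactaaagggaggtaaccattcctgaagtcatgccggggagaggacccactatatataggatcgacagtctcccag
G6pc, chr11:101367466-101367765, plus strand: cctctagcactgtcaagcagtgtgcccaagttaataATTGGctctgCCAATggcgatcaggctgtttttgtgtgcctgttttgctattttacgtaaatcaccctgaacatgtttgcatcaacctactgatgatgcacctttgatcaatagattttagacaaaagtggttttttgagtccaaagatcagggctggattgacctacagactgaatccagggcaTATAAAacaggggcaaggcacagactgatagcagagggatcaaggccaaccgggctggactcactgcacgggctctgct

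The observed over expected CpG ratio, which is near 1 where CpG has not been depleted, was 1.02 for Ralgps2 (a Ral exchange factor), 0.678 for Rtn2 (a reticulon of the endoplasmic reticulum) and 0.813 for Fra10ac1. It was 0.481 for Plin5, a lipid droplet coat protein, 0.311 for Fgb, the fibrinogen beta chain, and 0.245 for G6pc, the glucose-6-phosphatase of gluconeogenesis. The median over all 32585 RefSeq start windows was 0.386. Ralgps2 held 4 GC boxes, Rtn2 3 and Plin5 2. Fra10ac1 held 2 CCAAT boxes and 2 ETS sites. Fgb had 1 AP-1 match, and G6pc had 2 CCAAT boxes and a TATA box. These matches describe the letters, and binding was not tested.

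Most single-library regions came from a few libraries. The WT lists held 634 (WT 1), 267 (WT 2), 133 (WT 3) and 325 (WT 4), the Het lists 89, 30 and 25 (Het 1 to 3), and the Homo lists 123, 29 and 678 (Homo 1 to 3). WT 1 and Homo 3 together held 1312, or 56.2%. These 2 lists were also the longest, with 9526 and 9587 regions, and had the highest background, 1.74 and 1.61 tags per 200 bp. As a share of the list, single-library regions made up 0.643% in Het 2 and 7.07% in Homo 3.

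By genotype, 1359 came from WT (340 ± 212 per library, SD, n = 4), 144 from Het (48.0 ± 35.6, n = 3) and 830 from Homo (277 ± 351, n = 3). Homo 3 had more than every WT library, while Homo 1 (123) and Homo 2 (29) had fewer than every one. The overlap of the WT and Homo groups thus rests on Homo 3. All 3 Het libraries lay below all 4 WT libraries, also as a share of the list (0.643% to 1.54% against 1.98% to 6.66%). The Het lists were shorter too, with 5796, 4666 and 2583 regions against 6731 to 9526 in WT. At equal list lengths, given below, the groups overlapped, with 163 to 239 in Het and 108 to 184 in WT. Without Homo 3 the Homo number was 182 instead of 830 and the WT number 2036 instead of 1359, since regions that had been shared with Homo 3 then stood alone. Without Het 1 the Het number was 60.

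**Figure D1:**
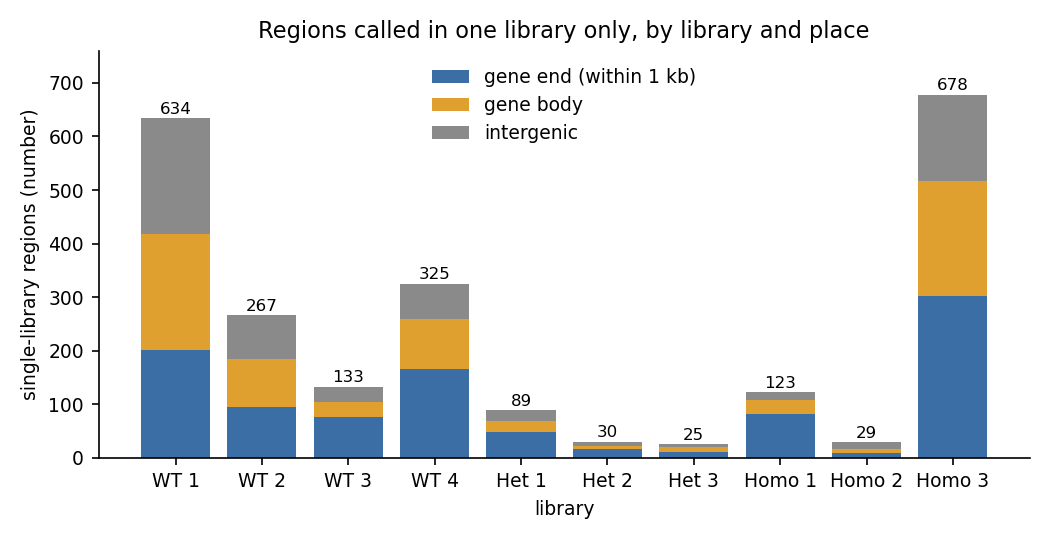
Number of regions called in 1 library only (vertical axis) in each of the 10 libraries (horizontal axis), split by place relative to protein-coding genes. The bars for WT 1 (634) and Homo 3 (678) are the highest and those for Het 2, Het 3 and Homo 2 (30, 25 and 29) the lowest.

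List length moved with these numbers. When each list was limited to its 1748 strongest regions, the length of the shortest list, 1951 regions were called in 1 list only, and the order of the libraries changed. WT 1 then had 157, WT 2 184, WT 3 153 and WT 4 108. Het 1 had 163, Het 2 170 and Het 3 239, while Homo 1 had 294, Homo 2 340 and Homo 3 143. The library with 1 of the smallest numbers in the deposited lists, Homo 2, had the largest number at equal length. When the tags of all summits were thinned to the depth of Homo 2, the shallowest library, 2338 single-library regions were found, 1284 in WT, 370 in Het and 684 in Homo.

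Regions called in exactly 2 lists, just outside the rule, came from the same libraries. Homo 3 and WT 1 shared 332 of these 1266 regions (26.2%), Homo 3 and WT 2 shared 148 (11.7%), and WT 1 and WT 2 shared 143 (11.3%).

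Single-library regions were narrow and weak. Their median width was 228 bp (interquartile range 201 to 277), and 582 (24.9%) had exactly 200 bp, the smallest width in the lists. The authors' fold, the pile of tags at the summit over the local background, had a median of 5.45 (4.95 to 6.10). The median summit held 15 tags over a background of 1.78. Regions just outside the rule, in exactly 2 lists, had a median width of 251 bp, a fold of 5.73 and 16 tags, and those in 2 or more lists 352 bp, 6.58 and 18 tags. These medians pool libraries of unlike depth, and a shared region counts once in each of its lists. Within each library the single-library median was lower than that of the other regions, from 9 against 10 tags in Homo 2 to 15 against 24 in Homo 3.

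Rank within a list was taken from the authors' −log10 p, with a percentile of 100 for the strongest region. The median percentile of single-library regions was 15.9, against 21.6 for regions in exactly 2 lists. By library the median ran from 13.3 in Homo 3 and 14.4 in WT 4 to 26.5 in Homo 1 and 32.2 in Homo 2. In all, 1588 of the 2333 (68.1%) lay in the weakest 25% of their list, 164 (7.03%) above the median of the list and 17 in its strongest 25%. The highest, inside Plxnc1 in Het 2, reached a percentile of 89.5. The smallest summit among single-library regions held 6 tags in Homo 2 and 10 in WT 1. At the lowest background, 5 tags pass a Poisson p of 1e-05 in Homo 2 and 10 in WT 1. That threshold was set here, since the authors' own is not given.

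**Figure D2:**
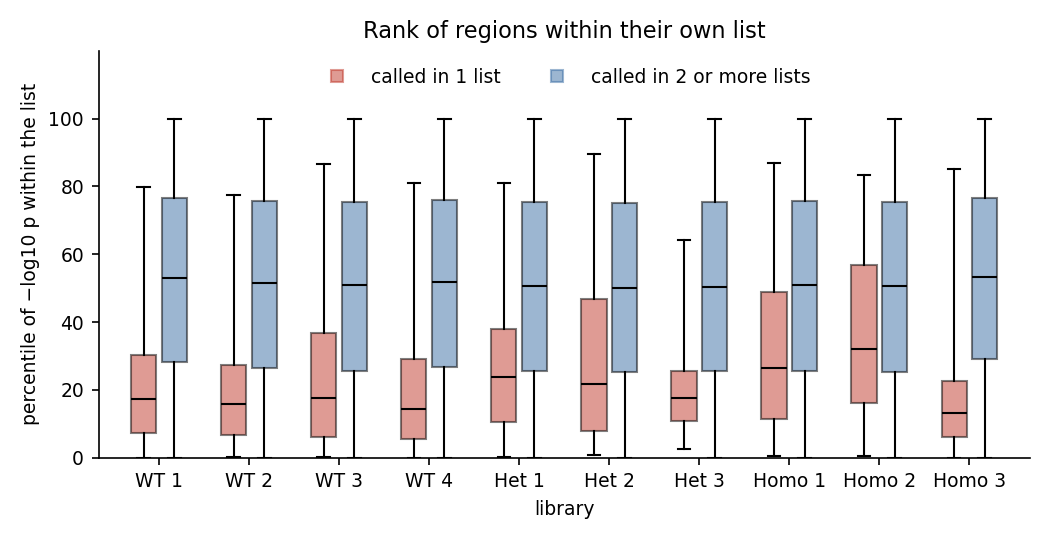
Percentile of the −log10 p within the list (vertical axis, 100 is the strongest) for regions called in 1 list and regions called in 2 or more lists, in each library. Boxes span the quartiles with the median as a line and whiskers reach the lowest and highest value. In every library the single-library median lies below that of the other regions, from 13.3 in Homo 3 to 32.2 in Homo 2.

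A question the choice of regions leaves free is where they lie. Each region was placed at a gene end (within 1000 bp of either end of a protein-coding gene), inside a gene body, or between genes. Gene ends took 1007 of the 2333 regions (43.2%), gene bodies 709 (30.4%) and intergenic space 617 (26.4%). Read the other way, single-library regions were 12.1% of all 8342 gene-end regions, 31.6% of the 2241 gene-body regions and 36.7% of the 1683 intergenic regions. Only the outer ends of protein-coding genes set these classes, so gene bodies and intergenic space still held annotated starts. Among single-library regions, 118 in gene bodies and 41 in intergenic space overlapped a RefSeq start window, against 543 at gene ends. Of the 617 intergenic ones, 133 (21.6%) lay at an end of a non-coding gene.

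The gene-end share climbed with the number of lists, from 43.2% in 1 list and 51.7% in exactly 2 to 86.9% in 8 lists. In all 10 lists it was 62.3%, with 23.2% of those 647 regions between genes. Joined regions also widened, from a median of 228 bp in 1 list to 684 bp in 10. Placed by the summit alone instead of the whole region, the difference given next was -29.1 points.

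**Figure D3:**
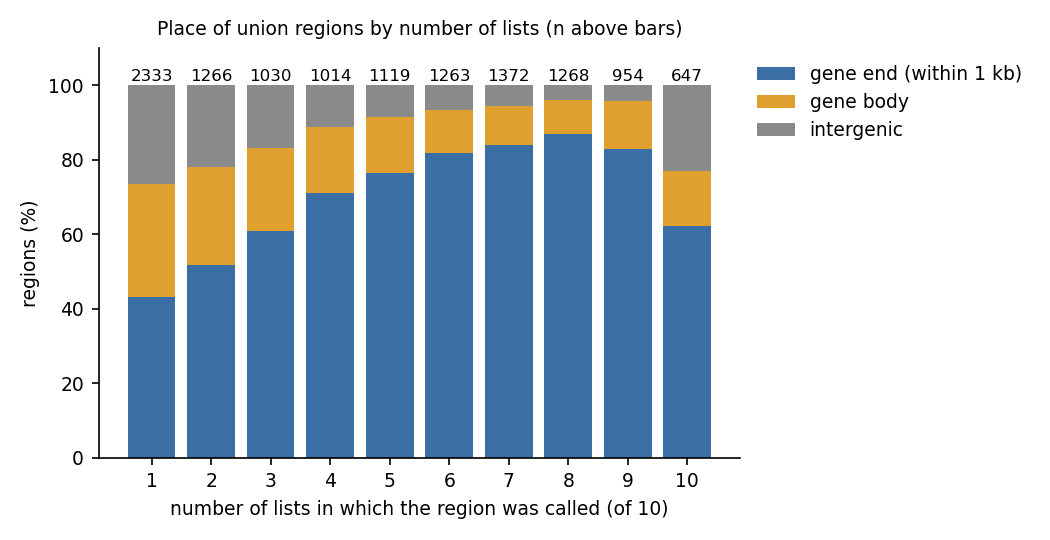
Percent of joined regions in each class of place (vertical axis) by the number of lists in which the region was called (horizontal axis), with the number of regions above each bar. The gene-end share rises from 43.2% in 1 list to 86.9% in 8 and is 62.3% in 10.

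Within the deposited lists, the gene-end percent of single-library regions was lower than that of the other regions of the same library in 10 of 10 libraries. In WT it was 31.9% against 75.0% (WT 1), 35.2% against 76.2% (WT 2), 57.1% against 80.6% (WT 3) and 51.1% against 78.7% (WT 4). In Het it was 55.1% against 78.9%, 53.3% against 79.6% and 44.0% against 76.5% (Het 1 to 3). In Homo it was 65.9% against 78.8%, 31.0% against 71.7% and 44.7% against 76.0% (Homo 1 to 3). The highest single-library value, in Homo 1, stayed below the lowest value of the other regions, in Homo 2.

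The mean difference was -30.3 percentage points (SD 9.46, n = 10; 46.9% against 77.2%). A two-sided exact sign-flip permutation test over libraries gave p = 0.00195, the smallest that 10 libraries allow, and 0.00391 after Benjamini-Hochberg adjustment over 4 tests of place and base composition. The intergenic percent was higher in 10 of 10 libraries, with means of 25.5% and 9.55% (difference 15.9 points, SD 7.54, exact permutation p = 0.00195, adjusted 0.00391). Regions of 2 or more lists recur between libraries, so the 10 differences are not fully independent.

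Limiting the lists changes their length and the weakest strength they hold together, and with them which regions count as single-library. Among the 1748 strongest regions of each list, 74.9% of single-library and 74.3% of other regions lay at gene ends, a difference of 0.609 points (adjusted exact permutation p = 0.732). The intergenic difference then turned over, to 9.27% against 13.2% (-3.94 points, lower in 9 of 10 libraries, adjusted exact permutation p = 0.0195). After thinning to equal depth the gene-end difference was -20.1 points and the intergenic difference 9.49 points, both in the direction of the deposited lists. Thinning was a random draw on the summit tags of rows already called, without new calling. The thinned lists still ran from 1748 regions (Homo 2) to 5860 (WT 2). Against other regions of similar rank in the same list, chosen after seeing the data, the differences were -31.7 and 18.1 points. Against regions in exactly 2 lists, also chosen after seeing the data, the gene-end difference was -7.37 points (lower in 8 of 10 libraries, adjusted exact permutation p = 0.0273). The intergenic difference was 5.46 points (higher in 10 of 10 libraries, adjusted exact permutation p = 0.00781).

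**Figure D4:**
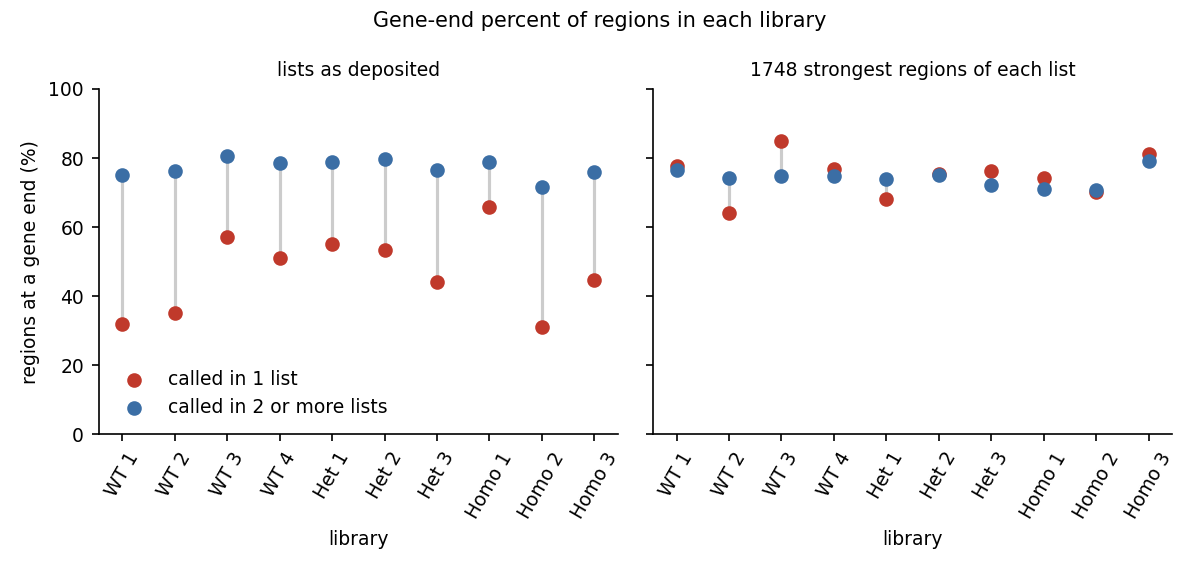
Percent of regions at a gene end (vertical axis) in each library (horizontal axis), for regions called in 1 list and in 2 or more lists, in the lists as deposited (left) and in lists of the 1748 strongest regions each (right). On the left every single-library point lies below its partner (means 46.9% and 77.2%), and on the right the means are 74.9% and 74.3%.

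Genotype groups were compared to ask whether single-library regions of Arid1a-mutant tumours sit in other places than those of WT tumours. The WT libraries averaged 43.8% ± 12.2 at gene ends (SD, n = 4). Het averaged 50.8% ± 5.95 and Homo 47.2% ± 17.5 (n = 3 each), and the groups overlapped. The differences were 6.97 points for Het minus WT (exact permutation p = 0.371), 3.37 for Homo minus WT (exact permutation p = 0.771) and -3.60 for Homo minus Het (exact permutation p = 0.8 in a design that cannot go below 0.1). All had an adjusted p of 0.8. With 4 against 3 libraries the smallest p is 0.0286. The Homo minus WT value was -0.84 without WT 1 and -6.09 without Homo 1, and Homo minus Het was 4.91 without Homo 2.

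Some single-library regions lay beside a shared region. In all, 216 (9.26%) lay within 500 bp of a region called in 2 or more lists, and the median distance was 30234 bp. The share within 500 bp was 33.3% in Homo 1 and 36.0% in Het 3, against 4.26% in WT 1. The Bmi1 region of Homo 1 (Bmi1 is a Polycomb group protein) lay 1 bp from a shared region, the Nsd1 region of Het 3 (a histone H3 methyltransferase) 11 bp, and the Lemd3 region of Het 3 (an inner nuclear membrane protein) 127 bp. The Ralgps2 region of WT 3, by contrast, was 220156 bp from the nearest shared region. Left out, the near ones reduced the total to 2117.

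The strongest gene-end regions of each library were named by rank. In WT 1 these were Serpina10, a protease inhibitor secreted by the liver (chr12:103631392-103631685, 27 tags over a background of 2.36, fold 8.33, percentile 80.0), and Bax, a pro-apoptotic BCL2 family member (chr7:45461023-45461282, fold 5.84, percentile 67.9). The Bax region lay at the far end of the gene, 881 bp from a shared region. WT 2 had Gm16867 (fold 8.11, percentile 62.8) and a region at the shared start of Cilk1, a ciliary kinase, and Fbxo9, a ubiquitin ligase adaptor (chr9:78109023-78109228, fold 6.49). The Cilk1 and Fbxo9 region lay 320 bp from a region called in 2 or more lists.

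In WT 3 the Ralgps2 start had 20 tags over 1.54 (chr1:156939499-156939768, fold 8.27, percentile 86.7), and Gpr153, an orphan receptor, had a fold of 7.08 at percentile 60.4. WT 4 had Slc2a6, a facilitative sugar transporter (chr2:27027959-27028177, fold 7.64, percentile 67.5), and Arl8a, a lysosomal GTPase (chr1:135146636-135146903, fold 7.19).

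Het libraries gave Rtn2 in Het 1 (chr7:19282469-19282686, 15 tags over 1.04, fold 7.84, percentile 71.3) and Syndig1l (fold 7.98, percentile 69.4). Het 2 had Syt9, a synaptotagmin (chr7:107370591-107370837, fold 7.25, percentile 57.7), and Ctsc, the lysosomal protease cathepsin C (fold 6.65, percentile 40.5). Het 3 had Lemd3 (fold 6.25) and Zfp157 (fold 6.38), at percentiles 56.1 and 50.1. The strongest of all by rank, in Het 2, lay inside Plxnc1, a semaphorin receptor (chr10:94872057-94872288, 16 tags over 0.84, fold 9.24), 72727 bp from the gene's nearer end.

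Homo 1 had Fra10ac1 (chr19:38224118-38224351, 16 tags over 0.914, fold 8.88, percentile 87.0), and Bmi1 with its neighbour Commd3 (fold 6.03, percentile 72.8). Homo 2 had Sort1, the trafficking receptor sortilin (chr3:108283817-108284016, fold 6.45, percentile 56.9), and Lrp2, the endocytic receptor megalin (fold 5.98, percentile 40.1). In Homo 3 the Plin5 start had 37 tags over 3.64 (chr17:56117279-56117666, fold 8.19, percentile 85.1). A region at the start of Mydgf, a secreted growth factor, and at an end of its neighbour Tnfaip8l1 had 31 tags over 2.5 (chr17:56183762-56184101, fold 9.14, percentile 82.0). Homo 3 also held the region with the highest fold of all 2333, 10.4 with 28 tags over 1.8, which lay between genes at chr13:35151751-35152126, 124636 bp from Eci2.

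The other intergenic leaders lay far from genes in some libraries and close in others. That of WT 3 (chr12:97037190-97037393, fold 8.06) was 1164894 bp from Galc, and that of Homo 1 (chr7:26779911-26780119, fold 8.76, percentile 86.4) was 7281 bp from Cyp2b19, a cytochrome P450. The WT 4 leader (chr17:94887119-94887337, fold 9.16, percentile 81.0) lay 7194 bp from Gm20939. Het 2 and Het 3 had leaders 5008 bp apart near Pdia4, on chromosome 6 at 47778022 to 47778288 and at 47772804 to 47773013. The Het 3 leader lay 268 bp from a shared region and the Het 2 leader 5486 bp.

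Arid1a, the gene deleted in this study, had a single-library region in Homo 1 (chr4:133757130-133757427, 17 tags over 3.04, fold 4.46, percentile 21.6). It lay 361 bp before the gene's start and 2552 bp from a shared region, and it does not check the deletion, whose place the labels do not give. No single-library region lay within 10 kb of Alb, Cebpb or Myc, the genes from which parts of the transgenes come.

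Genes were then counted. Of 21627 protein-coding genes, 1085 (5.02%) had a single-library region at a gene end, against 8380 (38.7%) with a region of 2 or more lists. Of the 1085 genes, 250 (23.0%) also had such a shared region, and 835 (3.86% of all genes) had single-library regions only. At 53 genes there were 2 or more single-library regions, 49 of them from different libraries, and 3 genes had 3. Cdk16, a cyclin-dependent kinase family member, had regions in WT 1, WT 3 and WT 4, Fndc3b in WT 2, WT 4 and Het 2, and Lasp1, an actin-binding protein, had 2 in WT 1 and 1 in WT 4. The Lasp1 regions lay side by side, so neighbouring calls counted as separate regions. On chromosome 11 they ran from 97798952 to 97799240 and 97799423 to 97799624 (WT 1), and from 97799809 to 97800279 (WT 4). Where strand was known, 780 of 820 regions touched the start side of a gene and 40 (4.88%) its far end alone, against 3.09% of regions in exactly 2 lists and 1.74% in 2 to 10 lists. By library this share was highest in Het 2 (10% of 10 regions), WT 1 (9.09%) and Homo 3 (6.78%), and in WT 3, WT 4, Het 3 and Homo 2 it lay below that of the other regions of the library.

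Lists of genes were counted against that background of 5.02% for any single-library region and 3.86% for single-library regions only. In 5 lists of liver function, 11 of 118 genes (9.32%) had one and 10 (8.47%) had nothing else. In 4 lists of growth and upkeep (housekeeping, MYC-regulated growth, SWI/SNF and cell cycle genes) the counts were 4 of 104 (3.85%) and 2 (1.92%), while 90 (86.5%) had a region of 2 or more lists, against 43 (36.4%) in the liver lists and 38.7% of all genes. Neither the MYC-regulated growth genes nor the cell cycle genes had any, at 0 of 25 each, with 22 of 25 shared in both. In any list of 25 genes or fewer, here and below, 0 lies near the 5.02% of all genes. These counts are descriptions and were not tested.

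Among the liver genes, 4 of 20 of amino acid and urea cycle metabolism had a single-library region: Asl (argininosuccinate lyase) in WT 3, Sds (serine dehydratase) in WT 1, and Hpd (of tyrosine breakdown) and Mat1a (S-adenosylmethionine synthesis) in Homo 3. Folds were 4.76, 4.29, 4.70 and 6.25. All 4 had no shared gene-end region. Secreted liver proteins had 3 of 25, all in WT 1: Fgb (17 tags over 2.2, fold 5.62), F2 (prothrombin, fold 4.97) and Apob (apolipoprotein B, fold 4.17). Apob also had a shared region, 874 bp away.

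G6pc was called in Homo 3 (17 tags over 2.12, fold 5.77). The liver transcription factors Onecut1 and Rxra were called in Homo 3 (fold 5.15) and WT 4 (fold 4.26). Cytochrome P450 and drug metabolism genes had 0 of 25. Of the 11 liver genes, 5 were called in WT 1 and 4 in Homo 3, the 2 longest lists.

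Immediate early and stress genes had 4 of 25, none with a shared gene-end region: Ier2 in WT 3, Ier3 and Zfp36 in Homo 3, and Hspa1a in both WT 4 and Homo 3. Of this list, 18 genes (72%) had a gene-end region of 2 or more lists. The Ier3 region overlapped an end of Flot1 and, where strand was known, touched a far end only. The 2 Hspa1a regions lay 173 bp apart, so neighbouring calls counted as separate regions. Hspa1a has a near-identical copy, and its reads may be split between the 2 genes. Fetal liver genes had 2 of 17, Dlk1 in WT 1 (fold 5.14) and Lin28b, a blocker of let-7 maturation, in Het 1 (11 tags over 0.696, fold 7.07). Migration and metastasis genes had 3 of 23: Cdh2 (N-cadherin) in Homo 1, Fn1 (fibronectin) in Het 1 and Cxcr4 (a chemokine receptor) in WT 4. Their folds were 5.25, 5.88 and 4.72, at percentiles 38.4, 13.1 and 1.85. Cdh2 also had a shared gene-end region, and its Homo 1 region lay within 500 bp of a shared one.

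Housekeeping genes had 2 of 30, Psmb4 and Eef2, both in Homo 3, and SWI/SNF genes had 2 of 24, Arid1a in Homo 1 and Smarcc2 in Homo 3. Eef2 and Smarcc2 also had a shared gene-end region, and the Smarcc2 region lay 6 bp from a shared one. Markers of other cell types had 2 of 82: Spi1, a myeloid transcription factor, in Homo 3 (11 tags over 1.61, fold 4.60, percentile 1.14), and Onecut1, which cholangiocytes share with hepatocytes. The endothelial list, the stellate and fibroblast list and the lymphocyte list each had 0 of 15, and the erythroid list 0 of 10.

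Reference sequence at gene starts was compared because the rule that chose the regions did not use it. Whether base content affects which places are called was not tested. Single-library regions overlapped a RefSeq start window of 300 bases in 702 cases, and 791 windows had no region of more lists over them. Windows under single-library regions were less CpG-rich than windows under the other regions of the same library. The mean over libraries of the median CpG ratio was 0.744 against 0.858 (difference -0.114, SD 0.108, lower in 8 of 9 libraries, exact sign-flip permutation p = 0.0156, adjusted 0.0208). Het 3, with 4 windows, was left out of this and the following tests. GC content was 61.1% against 64.4% (difference -3.28 points, SD 3.41, lower in 7 of 9, exact permutation p = 0.0312, adjusted 0.0312).

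By library, the CpG ratio under single-library regions was 0.580, 0.716, 0.850 and 0.804 in WT 1 to WT 4, 0.750 and 0.780 in Het 1 and Het 2, and 0.934, 0.611 and 0.673 in Homo 1 to Homo 3. Other regions gave 0.845 to 0.877 in these 9 libraries. Homo 1 was the library with the higher value under single-library regions. Het 2 and Homo 2 rest on 10 windows each. The CpG call was lost without WT 2 (difference -0.100, adjusted exact permutation p = 0.0521), and the GC call without any 1 of WT 2, WT 3, WT 4, Het 2, Homo 1 or Homo 2 (differences -2.52 to -3.23).

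Against windows under regions in exactly 2 lists, chosen after seeing the data, the CpG difference was 0.005 (adjusted exact permutation p = 0.875). Among the 1748 strongest regions of each list it was -0.0460 (lower in 9 of 10 libraries, adjusted exact permutation p = 0.0195). Over all libraries pooled, the median CpG ratio was 0.254 for the 23107 windows without any region, 0.720 for windows whose regions were in 1 list, 0.750 for 2 lists and 0.898 for 10 lists. By this pooled CpG ratio, windows of single-library regions stood far closer to those of shared regions than to those without a region. By library, WT 1 (0.580) and Homo 2 (0.611) stood less close. Het 3, at 0.414 on 4 windows, stood nearer to windows without a region, and the other libraries had 0.673 to 0.934.

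**Figure D5:**
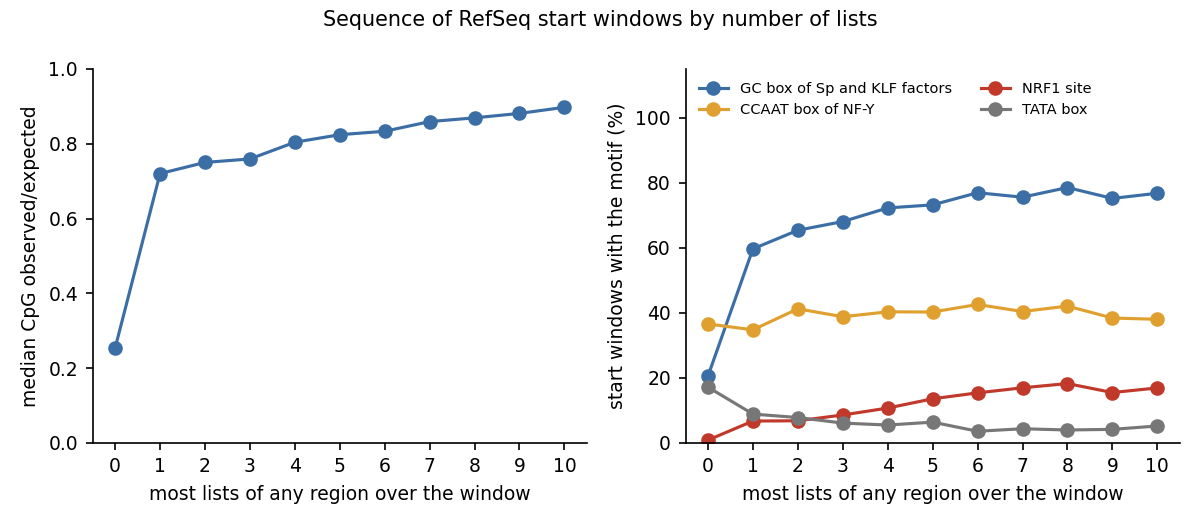
Left, median observed over expected CpG ratio of RefSeq start windows. Right, percent of windows with each of 4 motifs. Both are plotted against the largest number of lists of any region over the window (horizontal axis, 0 for none). The CpG ratio steps from 0.254 without a region to 0.720 at 1 list and 0.898 at 10 lists, and NRF1 matches from 0.853% to 6.70% and 16.9%.

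The 8 motifs searched on both strands were the E-box of MYC and MAX (CACGTG), the CCAAT box of NF-Y (CCAAT), the GC box of Sp and KLF factors (GGGCGG), an ETS site (CCGGAA), an NRF1 site (GCGC, any base, then TGCGC), the CRE of CREB and ATF factors (TGACGTCA), an AP-1 site (TGANTCA) and the TATA box (TATAAA). They occur in 7.20%, 37.6%, 35.9%, 15.0%, 4.62%, 1.80%, 7.85% and 13.7% of all start windows, in that order. NRF1 matches stood in 5.94% of windows under single-library regions and 15.7% under other regions (difference -9.74 points, SD 3.13, lower in 9 of 9, exact permutation p = 0.00391, adjusted over the 8 motifs 0.0312). GC boxes stood in 59.7% against 75.4% (-15.7 points, lower in 8 of 9, adjusted exact permutation p = 0.0312) and CCAAT boxes in 27.6% against 39.9% (-12.4 points, lower in 8 of 9, adjusted exact permutation p = 0.0417).

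The other 5 motifs did not pass. The MYC E-box was at 10.2% against 10.9% (adjusted exact permutation p = 0.727), ETS sites at 28.6% against 35.1% (0.0812), CRE at 2.11% against 3.70% (0.0781), AP-1 at 3.83% against 3.24% (0.727) and TATA boxes at 6.69% against 4.54% (0.260). With 8 libraries the smallest adjusted p for a motif that stands alone at the lowest p is 0.0625, and the NRF1 and GC box calls were lost at that value without any 1 of WT 2, Het 1, Het 2, Homo 2 or Homo 3. CCAAT was called without WT 1 or without Homo 1 and lost without each of the other 7. ETS sites passed without WT 3 or without Homo 1 (adjusted exact permutation p = 0.0312 and 0.0469). Against regions in exactly 2 lists the NRF1 difference was 0.384 points (adjusted exact permutation p = 0.946). Among the 1748 strongest regions of each list it was -4.59 points (lower in 10 of 10 libraries, adjusted exact permutation p = 0.0156), while GC boxes (-2.55 points) and CCAAT boxes (0.879 points) did not pass.

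Non-coding genes were counted within 1000 bp of either end. Regions at lncRNA genes were 253 (10.8%) of single-library regions, against 13.1% of regions in 2 or more lists. Those at miRNA genes were 0.643% against 0.785%, at snRNA genes 0.429% against 0.544%, at snoRNA genes 0.343% against 0.463% and at pseudogenes 0.557% against 0.805%. Regions at tRNA genes were 25 (1.07%) against 0.916%, and those at rRNA genes 8 (0.343%) against 8 (0.0805%). WT 1 had 5 single-library regions on chromosome 8 between 123555763 and 123618748, in the 5S rRNA gene cluster, where near-identical copies make the placing of reads uncertain. WT 1 also had 4 on chromosome 4 between 88760558 and 88794531, at the similar genes Gm13283, Gm13290, Gm13272 and Gm13275. The highest local background was at chr9:3037173-3037454 in WT 2, with 122 tags over 71.1 and a fold of 1.71.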

How the data were processed

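The 10 deposited lists are in narrowPeak format, 1 per library. Per the submitters' processing notes, the tools were Bowtie2, MACS2 and deepTools and the genome build was mm10. No version, setting, read filter or shift for the transposase is given in the sources used here. Each row has the authors' score, their fold (a ratio of the summit pileup plus 1 to the local background plus 1) and their −log10 p and −log10 q values. For 100% of rows, at least 1 pileup in whole tags with 1 Poisson background gave the deposited fold and −log10 p within 0.001. Where several pileups fitted, those with a background on a fixed grid of tag counts were preferred, then the closest fit. Tag counts rest on that choice where it arose. The smallest common background, from 0.464 to 1.74 tags per 200 bp, served as the depth, since total reads are not given here.

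Groups came from the sample titles. Overlapping or touching rows were merged, and their place was read from the RefSeq gene table (GRCm38.p6, 21627 protein-coding genes, starts and ends without exons or UTRs). Start windows (32585 for 26763 symbols) came from RefSeq, and those on chromosome 18 were not used here. A window was assigned to a library's single-library regions where no other region overlapped it. Shares were compared by exact sign-flip permutation over libraries with at least 10 regions or windows, and genotypes by exact permutation of labels, with Benjamini-Hochberg adjustment (Python 3.11.15, SciPy 1.17.1). Tests were tried on simulated data first. The regions and 18 gene lists were chosen with earlier results of these data known. Named regions are, in each library, the 2 strongest at gene ends, the strongest in a gene body and the strongest between genes, then any within 10 kb of Arid1a, Alb, Cebpb or Myc and any at a list gene, of which 1 is not reported here. Alternatives were joining gaps of 200 bp, 50% overlap, −log10 p of at least 7, equal list lengths, thinning to equal depth, other gene-end windows, each library left out, and 3 added after seeing the data. Sequences of distal regions were not used here.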

Additional observations from a re-analysis of the deposited data

How the results depend on the processing

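The gene-end and intergenic differences kept their direction and their call in 20 of 21 alternatives each. The exception was equal list lengths, where they were 0.609 and -3.94 points. Against regions in exactly 2 lists they were smaller, at -7.37 and 5.46 points. The gene-end difference ranged from -30.7 to -26.7 and the intergenic one from 13.5 to 16.7 with single libraries left out. The total number of single-library regions was 2098 with gaps of 200 bp joined, 2813 with 50% overlap required and 2322 to 2457 with libraries left out. Equal list lengths gave 602 regions in WT and 572 in Het, and thinning gave 370 in Het. Of the 66 named regions, 21 were called in 1 library only at equal list lengths and 42 after thinning. The cause was not tested.

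The promoter results were less stable. The GC difference missed the threshold at -3.21 (gaps joined), -2.12 (50% overlap), -2.92 (−log10 p of at least 7), -1.35 (equal lengths), -3.24 (start base inside the region) and -0.667 (regions in exactly 2 lists). The CCAAT difference did so at -8.33, -8.35, -5.53 (thinned), -10.7 (start base inside), -11.4 (similar strength), -8.83 (exactly 2 lists) and -11.9 (near regions left out), with gaps joined and the stricter p first, and was 0.879 at equal lengths. The GC box difference missed it in the same 6 settings as GC, in that order at -16.7, -9.01, -13.8, -2.55, -17.0 and -7.40. The NRF1 difference did so at -9.52 (gaps joined), -10.5 (stricter p) and -9.23 (start base inside). At exactly 2 lists NRF1 was 0.384, ETS 0.199, the E-box 2.41 and the CpG ratio 0.00500. The E-box was 1.54 at 50% overlap, 1.07 at equal lengths and 0.364 after thinning, and CRE 0.401 at equal lengths. With single libraries left out, the CpG difference ranged from -0.135 to -0.0981, GC from -3.71 to -2.52, CCAAT from -12.6 to -7.65, GC box from -16.2 to -13.2, NRF1 from -10.9 to -8.53 and ETS from -8.66 to -4.29. The cause was not tested.

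Genotype differences in gene-end percent had an adjusted exact permutation p of at least 0.3 in every alternative. At equal lengths Homo minus WT was -0.727, Het minus WT -2.73 and Homo minus Het 2.01. Homo minus WT was -2.17 after thinning, and Homo minus Het 0.384 at the stricter p. Leaving out libraries gave -6.09 to 11.3 for Homo minus WT, 3.53 to 13.0 for Het minus WT and -14.6 to 4.91 for Homo minus Het. With the replicate number as a block over 3 pairs the differences were 5.79, 9.39 and -3.60. In their called regions, taken as deviations from the group mean, same-numbered libraries correlated at -0.141 to 0.0139. Differently numbered libraries were not set beside them, so these values cannot decide whether the numbers pair the libraries. The number of reads is not given here, so depth is known only from the recovered background.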

Other observations

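Chromosome X held 81 single-library regions, or 3.47%, against 178 (1.79%) of the regions called in 2 or more lists. The share was higher among single-library regions than among the other regions of the same library in 9 of 10 libraries, from 1.58% against 1.54% in WT 1 to 10.3% against 1.40% in Homo 2, which rests on 3 regions. Het 3 had 0 of 25 single-library regions there. Homo 3 had 29, at 4.28% against 1.69%. This pattern was chosen after its values were seen, was not tested, and the sex of the mice is not given in the sources used here.

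Single-library regions at tRNA genes numbered 8 of 634 in WT 1, 8 of 267 in WT 2, 7 of 678 in Homo 3, 1 of 133 in WT 3 and 1 of 325 in WT 4. The other 5 lists, with 25 to 123 single-library regions each, had 0, where a share of 1.07% would give about 1 or fewer per list. By strength, 37.2% of the 164 single-library regions above the median of their own list lay at gene ends and 33.5% between genes, against 45.3% and 24.4% of the 1588 in the weakest 25%.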
